A study of Mus musculus with 12 samples.

Results

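The regions described here are the places in the mouse genome where captured DNA peaked over a tetranucleotide repeat made of 1 CA step followed by 1 CG step, the repeat written CACG. A peak was counted as a member if its sequence in mm10 held, on either strand and in any phase, a perfect run of this repeat of at least 16 bp. On the 19 autosomes, 1290 of 169284 peaks on SssI-methylated DNA were members, which is 0.762% (95% confidence interval 0.722 to 0.805%), and 272 of 14554 peaks on TKO DNA, which is 1.87% (1.66 to 2.10%). The lists are described separately below and then by their overlap.

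The peaks come from in vitro affinity sequencing, in which purified ZBTB43 fused to maltose-binding protein (MBP) was mixed with sonicated genomic DNA and the captured fragments were sequenced. The unmethylated DNA was from a male triple-knockout (TKO) embryonic stem cell clone that lacks Dnmt1, Dnmt3a and Dnmt3b (Dnmt1-/-Dnmt3a-/-Dnmt3b-/-), and the methylated DNA was lung DNA of adult male wild-type C57BL/6N mice, 2 months old, methylated in the tube at CpGs with the bacterial enzyme M.SssI. MBP alone was used on each DNA as the background, and each of these 4 conditions had 2 libraries, 8 of the 12 libraries of the experiment. The 4 libraries on sperm DNA were not analysed here. The TKO and SssI DNAs differ in cell type and in the mice they come from as well as in CpG methylation, and these cannot be told apart in any comparison below. Duplicates were pooled before peaks were called, so that each DNA is represented by 1 list without any measure of replicate variation, and nothing was tested between them. Confidence intervals are Wilson 95% intervals for shares and order-statistic 95% intervals for medians, and they cover counting error over peaks or repeats only. Read counts are not part of the lists. The study states a minimum depth for all affinity-seq libraries alike, and the depth of each library cannot be read from the lists. The score of a peak is 10 times the −log10 of its q-value as the authors' peak caller wrote it, and it was compared only within a list.

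A stretch of DNA in which purines and pyrimidines alternate can leave the usual right-handed helix and form left-handed Z-DNA. Runs of CG steps do this most readily, runs of CA steps less so, and runs of TA steps poorly, and methylation of the cytosines of a CG step favours the Z form. The CACG repeat combines a CA step with a CG step, so that every unit carries 1 CpG for M.SssI to methylate. ZBTB43 is a zinc finger protein with a BTB domain that is highly expressed in prospermatogonia, the male germ cells of the foetal testis. The study used CACG and CA repeats and stretches at the Rps6kl1 and Ago2 genes as probes in its binding assays.

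The sequences of regions that stand at the ends of these lists are shown first, because they show what surrounds the repeat. For regions in a peak, the stretch shown is only part of the peak, and what drew the score was not tested. For the intergenic region on chromosome 1, it holds 10 of the 35 CpGs of the peak. Each is read 5′ to 3′ on the strand that carries the CA steps, from GRCm38, the assembly that mm10 names. Capitals mark perfect CACG repeats of at least 16 bp, and lower case marks the alternating purine-pyrimidine tract around the longest repeat and 10 bases beyond it on either side. In this and all other statements on sequence, the reference stands for the DNA that was captured, and repeats may differ in length between them.
Jarid2, the SssI member with the highest score, chr13:44762874-44762964, forward strand: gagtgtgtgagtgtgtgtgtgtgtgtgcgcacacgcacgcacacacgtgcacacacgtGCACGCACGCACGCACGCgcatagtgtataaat
Rps6kl1, the region of the binding assays, a member of both lists, chr12:85141984-85142063, reverse strand: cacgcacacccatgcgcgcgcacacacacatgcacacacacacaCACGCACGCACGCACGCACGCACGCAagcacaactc
An intergenic region with the second highest score among TKO members, chr1:56008418-56008501, forward strand: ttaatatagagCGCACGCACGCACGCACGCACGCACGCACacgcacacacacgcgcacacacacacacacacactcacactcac
Hydin, the TKO member with the fourth highest score, chr8:110515093-110515231, reverse strand: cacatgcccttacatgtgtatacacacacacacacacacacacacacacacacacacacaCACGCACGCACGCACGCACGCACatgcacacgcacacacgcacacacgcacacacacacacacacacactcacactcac
Apbb2, the member with the longest repeat in both lists, chr5:66466327-66466589, forward strand: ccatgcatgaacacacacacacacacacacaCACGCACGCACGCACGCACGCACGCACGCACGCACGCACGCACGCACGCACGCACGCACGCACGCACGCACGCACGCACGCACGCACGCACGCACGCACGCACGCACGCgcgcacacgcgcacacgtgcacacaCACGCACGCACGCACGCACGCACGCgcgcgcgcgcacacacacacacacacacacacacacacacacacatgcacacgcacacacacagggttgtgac
Wwox, a long repeat with an SssI peak and no TKO peak, chr8:115204736-115204862, forward strand: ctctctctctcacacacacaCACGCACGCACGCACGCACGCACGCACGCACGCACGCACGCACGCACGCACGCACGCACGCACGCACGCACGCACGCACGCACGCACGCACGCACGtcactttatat
Upstream of Defb8, the SssI member with the highest score and no TKO peak, chr8:19450435-19450522, reverse strand: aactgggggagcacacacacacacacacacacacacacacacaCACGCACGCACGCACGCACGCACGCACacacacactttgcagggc
An intergenic SssI member with a high score, a short tract and no TKO peak, chr14:104548819-104548872, forward strand: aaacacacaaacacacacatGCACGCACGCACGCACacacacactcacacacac
Rbfox1, the TKO member with no SssI peak, chr16:6123073-6123196, forward strand: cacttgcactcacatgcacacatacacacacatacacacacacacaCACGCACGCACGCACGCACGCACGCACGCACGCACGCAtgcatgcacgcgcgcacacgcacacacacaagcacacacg
Adgrl2, the longest repeat outside all peaks, chr3:148882938-148883018, forward strand: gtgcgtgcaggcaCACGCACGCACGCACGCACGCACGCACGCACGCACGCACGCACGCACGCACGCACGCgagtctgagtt
Stk10, one of the 5 longest repeats outside all peaks, chr11:32614712-32614784, reverse strand: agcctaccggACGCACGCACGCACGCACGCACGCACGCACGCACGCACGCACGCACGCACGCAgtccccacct
The longest CACG repeat makes up 18 of the 71 bp of the alternating tract at Jarid2, 23 of 119 bp at Hydin and 26 of 60 bp at Rps6kl1. At Adgrl2 and Stk10 the repeat is long but nearly bare, and the alternation stops within a few bases of its ends.

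The autosomes of the reference held 1997 perfect CACG repeats of at least 16 bp. Of these, 1404 (70.3%, 68.3 to 72.3%) lay in an SssI peak and 338 (16.9%, 15.3 to 18.6%) in a TKO peak. In all, 337 lay in a peak of both lists, 1 lay in a TKO peak without an SssI peak, and 592 (29.6%, 27.7 to 31.7%) lay in neither. These shares were above those of every other repeat counted in the same way. CA dinucleotide repeats of at least 16 bp were in an SssI peak in 60.4% of 315737 cases and in a TKO peak in 8.79%. CG dinucleotide repeats, of which there were 1322, were in an SssI peak in 56.4% (53.7 to 59.1%) and in a TKO peak in 3.86% (2.95 to 5.04%). Repeats of a CA and a TG step gave 16.3 and 1.81%, repeats of a CA and a TA step 14.0 and 0.989%, and TA dinucleotide repeats 1.76 and 0.107%, in the SssI and TKO lists. For repeats of a CG and a TA step the 46 cases were too few for a firm share, with 28.3% (17.3 to 42.5%) in an SssI peak. The alternation was absent from a repeat of the same 4 bases in another order that has no CpG. Of its 826 cases, 29 (3.51%, 2.46 to 5.00%) lay in an SssI peak. In a TKO peak lay 0 of 826, which allows up to 0.463%. Repeats of these bases that keep a CpG without alternating were rare, with 1 of 29 in an SssI peak.

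**Figure D1:**
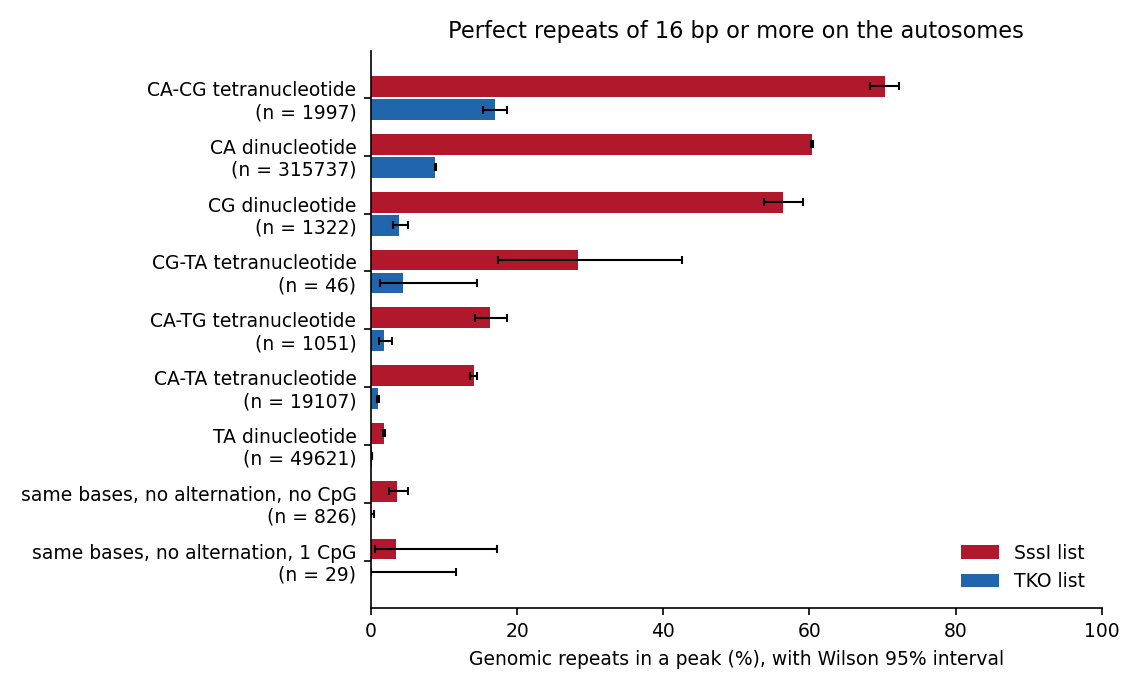
Share of perfect genomic repeats of at least 16 bp that overlapped a peak (x axis, percent) for each kind of repeat (y axis, with the number of repeats on the autosomes); bars are the SssI list (red) and the TKO list (blue), and black lines are Wilson 95% intervals. The CACG repeat, named CA-CG tetranucleotide, has the longest bar in both lists (70.3 and 16.9%).

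Without regard to the sequence around them, longer CACG repeats were found more often in SssI peaks, and not in TKO peaks. The share in an SssI peak was 64.9% (61.4 to 68.3%) for repeats of 16 to 19 bp, 69.8% (66.2 to 73.2%) for 20 to 27 bp, 75.8% (71.6 to 79.6%) for 28 to 39 bp and 80.6% (74.2 to 85.7%) for 40 bp or more. In the TKO list they were 17.5, 16.9, 17.5 and 13.3%, from the shortest class to the longest, with intervals that overlap. CA dinucleotide repeats of these lengths went the same way in the SssI list, from 47.8 to 79.1%, and the opposite way in the TKO list, from 14.6 to 5.19%.

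The share in a peak spanned a wider range over the length of the alternating sequence around the repeat than over the length of the repeat itself. The alternating tract that holds the repeat was measured as the longest unbroken run of alternating purines and pyrimidines over it. Repeats in a peak of either list had a median tract of 71 bp (70 to 73 bp), and repeats outside all peaks one of 36 bp (34 to 37 bp). Where the tract was 16 to 23 bp, little more than the repeat, 27.3% (20.9 to 34.8%) of 154 repeats lay in an SssI peak and 4.55% (2.22 to 9.08%) in a TKO peak. At 24 to 35 bp the shares were 24.5 and 3.00%, and at 36 to 59 bp they were 54.2 and 6.40%. At 60 bp or more they were 96.1% (94.8 to 97.1%) and 27.8% (25.2 to 30.6%) of 1032 repeats. The rise did not need a long repeat. Among the repeats of 16 to 19 bp alone, the share in an SssI peak was 26.9% (19.7 to 35.5%) in tracts of 16 to 23 bp. It was 96.3% (93.6 to 97.9%) in tracts of 60 bp or more. The share in a TKO peak went from 4.20% (1.81 to 9.46%) to 33.7% (28.6 to 39.2%) over the same classes. In tracts of 36 to 59 bp, 61.8% (54.9 to 68.2%) of these short repeats lay in an SssI peak, against 54.2% (50.1 to 58.2%) of all repeats. In the other classes of tract their SssI share was close to that of all repeats. Within a class of tract, the shortest repeats were therefore not clearly lower in SssI share, unlike over all tracts together.

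To see what the repeat adds to a tract, alternating tracts with a CACG repeat were set beside tracts of the same length class and number of CpGs without one. In the SssI list, tracts of 60 to 99 bp with 6 to 9 CpGs were in a peak in 96.1% (93.4 to 97.7%) of 332 cases with the repeat and in 89.3% (88.0 to 90.5%) of 2344 cases without. With 10 or more CpGs the shares were 92.7% (89.1 to 95.2%) and 82.4% (79.4 to 85.1%). In tracts of 36 to 59 bp the direction varied with the CpGs. At 4 to 5 CpGs the shares were 71.7% (64.5 to 77.9%) with the repeat and 60.5% (58.97 to 62.01%) without, at 6 to 9 they were 48.0% (42.2 to 53.9%) and 54.4% (52.6 to 56.3%), and at 10 or more they were 43.6% (34.3 to 53.3%) and 40.4% (35.2 to 45.8%). In tracts of 24 to 35 bp the SssI shares were 24.8 and 32.7% at 4 to 5 CpGs and 22.3 and 33.1% at 6 to 9. In the TKO list the direction varied below 60 bp. At 36 to 59 bp with 4 to 5 CpGs the TKO shares were 12.1% (8.08 to 17.8%) with the repeat and 7.63% (6.84 to 8.49%) without. With 6 to 9 CpGs they were 4.30 and 5.97%, and with 10 or more 4.95% (2.13 to 11.1%) and 3.73% (2.14 to 6.40%). At 24 to 35 bp they were 1.77 and 6.24% with 4 to 5 CpGs, and 4.85 and 5.52% with 6 to 9. At 60 bp or more the TKO share was lower with the repeat in every class of CpGs, some of them with few tracts. At 60 to 99 bp with 4 to 5 CpGs the TKO shares were 9.84% (5.72 to 16.4%) with the repeat and 18.1% (16.6 to 19.8%) without, and with 6 to 9 CpGs they were 13.6% (10.3 to 17.7%) with the repeat and 17.9% (16.4 to 19.5%) without. At 100 bp or more with 10 or more CpGs they were 73.4% (66.0 to 79.7%) of 158 tracts with the repeat and 78.4% (73.7 to 82.5%) of 334 without. The CpGs of a long tract moved with its share in either list. Among tracts of 100 bp or more without the repeat, the TKO share was 16.3% (15.3 to 17.3%) with no CpG, 30.2% (28.02 to 32.41%) with 1 to 3, 56.6% (50.6 to 62.3%) with 4 to 5, 70.3% (64.99 to 75.03%) with 6 to 9 and 78.4% with 10 or more. The same tracts were in an SssI peak in 35.3, 59.6, 83.9, 91.8 and 94.9% of cases. TKO DNA carries no CpG methylation, and no cause of these rises was tested. Tracts of mostly TA steps were kept if they held any G or C. The classes of CpGs may therefore differ in TA steps, which was not tested. Without a CpG, the SssI share was 55.7% at 36 to 59 bp, 44.7% at 60 to 99 bp and 35.3% at 100 bp or more. How far reads can be placed in long repeats was not tested.

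**Figure D2:**
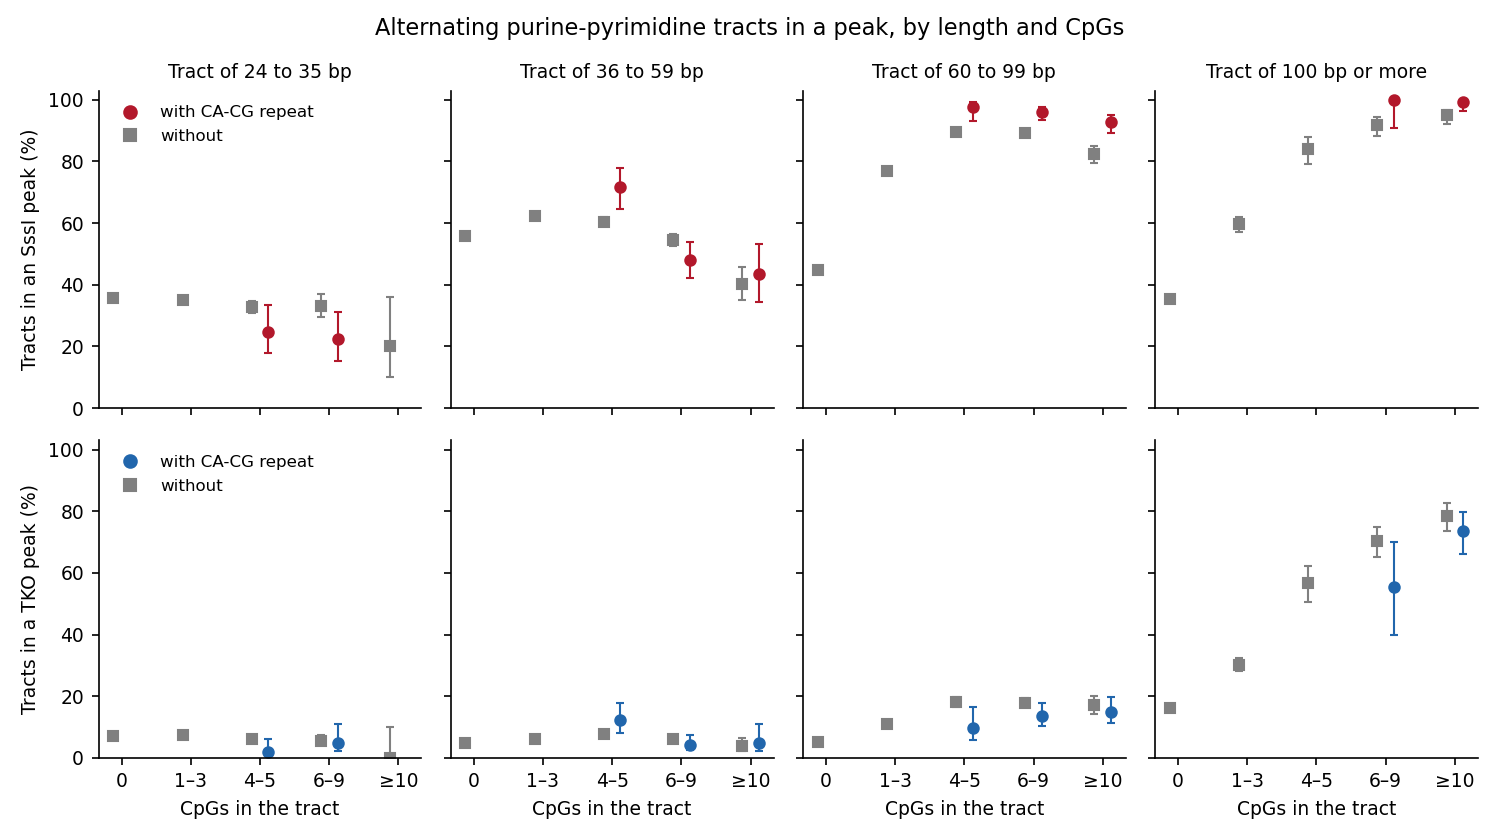
Share of alternating purine-pyrimidine tracts in an SssI peak (top row) or a TKO peak (bottom row), in percent, against the number of CpGs in the tract, for 4 classes of tract length (columns). Circles are tracts with a CACG repeat, grey squares are tracts without, lines are Wilson 95% intervals, and classes of under 20 tracts are left out. In the TKO list the shares rise past 50% only in the class of 100 bp or more. There the circles lie below the squares, with overlapping intervals (55.3 and 70.3% at 6 to 9 CpGs, 73.4 and 78.4% at 10 or more).

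Within the members, the longest repeat had a median length of 23 bp in both lists, with quartiles of 19 and 32 bp in the SssI list and of 19 and 31 bp in the TKO list, and the longest was 109 bp. Repeats of exactly 16 bp, the shortest that the rule admits, made up 102 SssI members and 13 TKO members. A peak held more than 1 such repeat in 85 SssI members (6.59%, 5.36 to 8.08%) and 46 TKO members (16.9%, 12.9 to 21.8%), and at most 5. The median alternating tract around the longest repeat was 70 bp (69 to 72 bp) in SssI members and 99 bp (95 to 108 bp) in TKO members, and it held a median of 8 CpGs and 11 CpGs (10 to 11). The longest tract was 869 bp. Only 20 SssI members and 2 TKO members had a tract that was the repeat alone, 1.55% (1.01 to 2.38%) and 0.735% (0.202 to 2.64%), compared with 11.7% (9.31 to 14.5%) of the repeats outside all peaks.

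What flanks the repeat inside the tract is mostly CA. Read on the CA strand, the rest of the tract in SssI members consisted of 81.4% CA steps, 11.3% CG steps, 4.32% TG steps and 3.08% TA steps, and in TKO members of 80.0, 15.3, 2.80 and 1.90%. A CA dinucleotide repeat of at least 12 bp lay in the peak in 92.6% of SssI members, against 93.9% of all SssI peaks, and in 98.5% (96.3 to 99.4%) of TKO members, against 87.9% (87.3 to 88.4%) of all TKO peaks. A CG dinucleotide repeat of at least 16 bp lay in 13 of 1290 SssI members (1.01%) and 4 of 272 TKO members (1.47%). Over the whole lists it lay in 732 of 169284 SssI peaks and 49 of 14554 TKO peaks. The flanks were uneven. In SssI members the alternating bases numbered a median of 29 (27 to 30) on the 5′ side of the repeat and 10.5 (10 to 12) on the 3′ side, and the 5′ side was the longer in 67.8% (65.1 to 70.3%) of the members whose sides differed. All genomic CACG repeats had this lean, with the 5′ side longer in 64.8% (62.6 to 66.9%), and repeats outside all peaks in 59.7% (55.4 to 63.9%). In TKO members the sides were closer, with medians of 37 (34 to 41) and 30 (24 to 34) bases. The CA strand was the forward strand of the reference in 49.3% of SssI members and 48.5% of TKO members.

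The repeat mostly sat near the middle of the peak. Some peaks with high scores held it well off the middle, among them those at chr1:56008338-56008897, at chr11:56572052-56572709 and upstream of Defb8. Its centre lay a median of 20 bp (19 to 21 bp) from the midpoint of an SssI member, 16.7% of the way to the edge, and 30.75 bp (25.5 to 36 bp) from that of a TKO member, 24.2% of the way. An edge of the peak cut the repeat in 3 SssI members and 2 TKO members.

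Members had high scores in the SssI list. Their median score was 319 (289 to 366), compared with 108 over all SssI peaks, 126 (114 to 138) over peaks with a CG dinucleotide repeat and 84 over peaks with a CA dinucleotide repeat and no CpG. Of the SssI members, 31.4% (28.9 to 34.0%) were in the top 10% of the list by score, 19.5% in the next 10% and 3.33% in the lowest 10%. In the TKO list the median score of members was 284.5 (219 to 353), compared with 193 (187 to 199) over all TKO peaks, 234 (141 to 353) over the 49 peaks with a CG dinucleotide repeat and 120 (114 to 124) over peaks with a CA dinucleotide repeat and no CpG. The interval of the members overlapped that of the CG repeat peaks. SssI members were also wider than the list, with a median of 241 bp against 196 bp, whereas TKO members had a median of 251 bp against 252 bp. Members held a median of 10 CpGs in the SssI list and 14 in the TKO list, compared with 1 and 2 over all peaks. The rule bears on this number, because 16 bp of the repeat hold at least 3 CpGs.

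**Figure D3:**
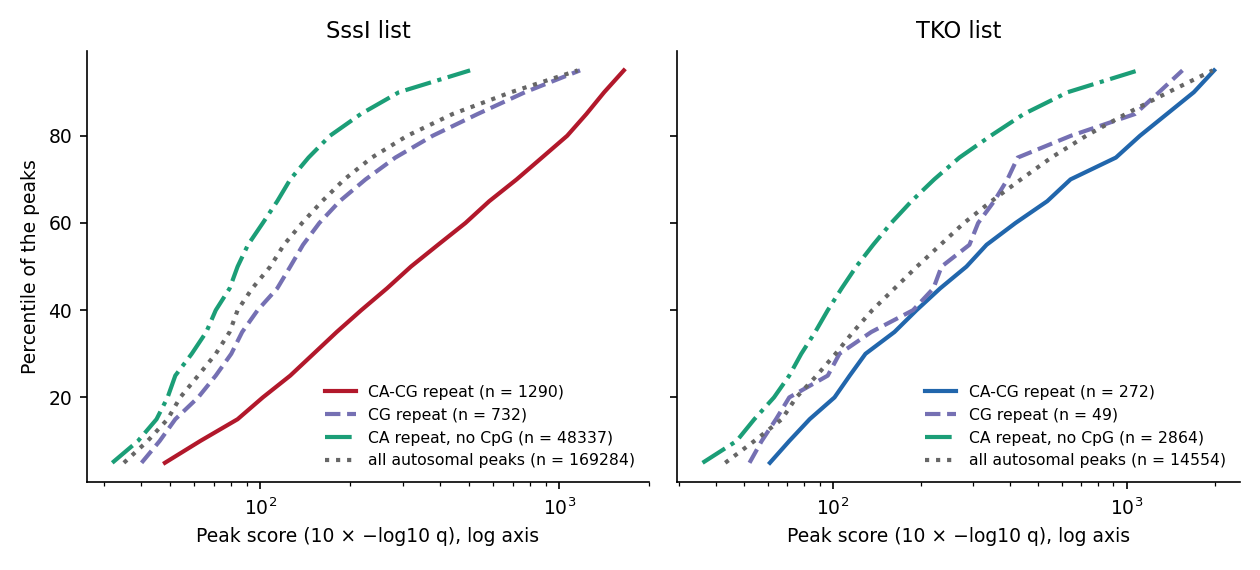
Peak score (x axis, 10 × −log10 q on a log axis) against the percentile of the peaks (y axis) for peaks at CACG repeats (solid), peaks with a CG dinucleotide repeat (dashed), peaks with a CA dinucleotide repeat and no CpG (dash-dot) and all autosomal peaks (dotted), in the SssI list (left) and the TKO list (right). In the SssI list the members lie to the right of the other classes throughout (median 319 against 108 for all peaks), and in the TKO list they are closer to them (284.5 against 193).

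Across the members, the score was at most weakly related to the length of the repeat. The Spearman correlation was 0.07 over 1290 SssI members and −0.05 over 272 TKO members. From repeats of 16 to 19 bp to those of 40 bp or more, the median SssI scores were 269 (229 to 309), 333 (273 to 406), 380 (321 to 453) and 353 (241 to 487). The score followed the length of the alternating tract (0.55 and 0.32), the number of CpGs in the peak (0.48 and 0.58) and the width of the peak (0.89 and 0.87). These are correlations across peaks of 1 list, which share their libraries, and wider peaks hold more CpGs. The score and the width of a peak come from the same reads.

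SssI members overlapped a TKO peak more often than the list as a whole. Of the 1290 members, 287 did (22.2%, 20.1 to 24.6%), where 8.47% of all autosomal SssI peaks did. The share was 7.38% (5.70 to 9.50%) for the 732 SssI peaks with a CG dinucleotide repeat and 2.69% (2.55 to 2.84%) for peaks with a CA dinucleotide repeat and no CpG. In 271 of the 287 the TKO peak was a member too, and in 16 the TKO peak did not hold 16 bp of the repeat. Within parts of the list of equal score rank the direction varied. In the top 10% by score, 65.7% (60.9 to 70.1%) of 405 members overlapped a TKO peak, compared with 70.0% (69.3 to 70.7%) of all peaks there. In the next 10% the shares were 5.95% (3.64 to 9.59%) and 10.7% (10.3 to 11.2%). In the third of the 10 equal parts 3 of 167 members had a TKO peak (1.80%, 0.613 to 5.15%), against 2.05% (1.85 to 2.27%) of all its peaks. In the fourth 3 of 111 members did (2.70%, 0.923 to 7.65%), against 0.744% (0.626 to 0.885%), so that members had the higher share there, on 3 peaks. Further down no member had a TKO peak.

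Compared within classes of CpG number, members with 4 to 19 CpGs overlapped a TKO peak less often than SssI peaks without the repeat. Only the 122 members with 20 or more CpGs did so more often. With 4 to 5 CpGs in the peak, 3 of 123 members did (2.44%, 0.833 to 6.93%), against 17.4% (16.75 to 17.98%) of peaks without the repeat. With 6 to 9 CpGs the shares were 9.40% (7.01 to 12.5%) and 23.7% (22.9 to 24.6%), with 10 to 19 they were 24% (20.8 to 27.6%) and 36.7% (35.1 to 38.4%), and with 20 or more they were 81.1% (73.3 to 87.1%) and 65.1% (60.5 to 69.5%). In the top 10% by score alone the order was the same, with 43.8% (33.0 to 55.2%) against 71.8% (70.7 to 73.0%) at 4 to 9 CpGs. At 10 to 19 CpGs the shares there were 60.5% (54.0 to 66.7%) and 73.6% (71.3 to 75.7%). At 20 or more CpGs the intervals overlapped, with 90.8% (83.9 to 94.9%) against 83.6% (79.2 to 87.3%).

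The members that overlapped a TKO peak had longer alternating tracts, not longer repeats. Their tract had a median of 98 bp (93 to 105 bp), compared with 67 bp (66 to 69 bp) for those without a TKO peak, while the median repeat was 23 bp in both. By the length of the repeat, the share with a TKO peak was 24.3, 21.4, 22.9 and 17.4% from the shortest class of repeat to the longest, with overlapping intervals. By the length of the tract it was 15.7% (9.61 to 24.7%) at 16 to 35 bp, 12.1% (8.86 to 16.3%) at 36 to 59 bp, 14.5% (12.1 to 17.3%) at 60 to 99 bp and 68.7% (61.9 to 74.8%) of 195 members at 100 bp or more. The CpGs of the peak moved with the share in every class of tract. At 60 to 99 bp it was 6.98% (4.61 to 10.4%) of 301 members with under 10 CpGs, 16.7% (13.2 to 20.8%) of 378 with 10 to 19 and 65.5% (47.3 to 80.1%) of 29 with 20 or more. At 100 bp or more these shares were 37.5% (21.2 to 57.3%), 61.1% (51.0 to 70.2%) and 88.2% (79.0 to 93.6%). The score moved with them, since the median SssI score was 240 (211 to 277) at 60 to 99 bp with under 10 CpGs and 1313 (1224 to 1418) at 100 bp or more with 20 or more CpGs, and its part in the share was not tested.

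**Figure D4:**
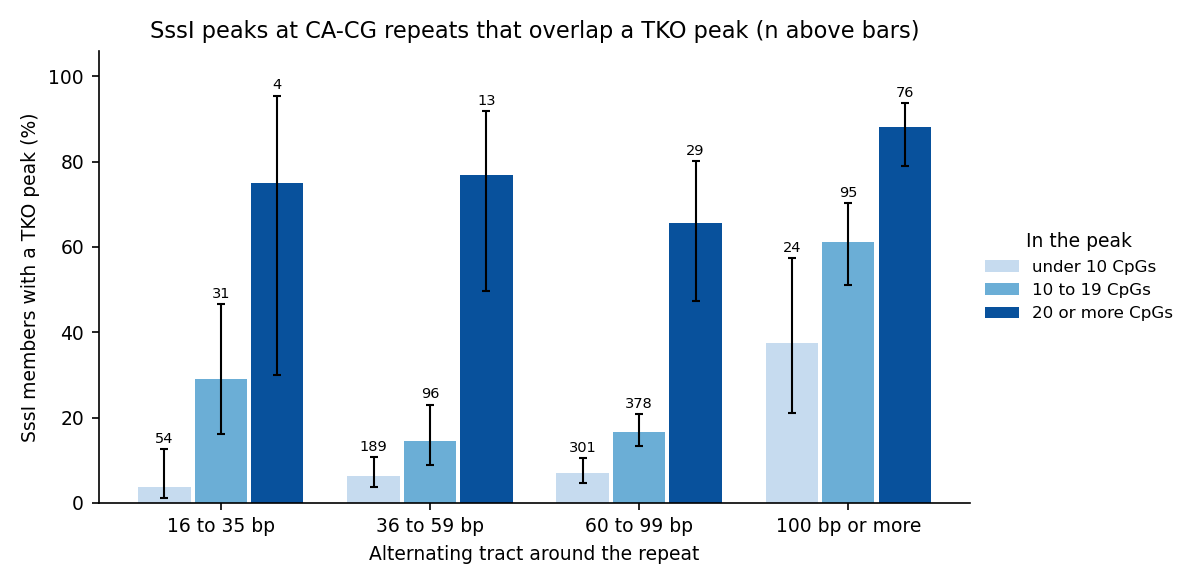
Share of SssI members that overlapped a TKO peak (y axis, percent) by the length of the alternating tract around the repeat (x axis) and the number of CpGs in the peak (shades), with Wilson 95% intervals and the number of members above each bar. The bars of 20 or more CpGs are the highest in each class of tract (65.5 to 88.2%), and at 100 bp or more the bars of the other CpG classes are higher too (37.5 and 61.1%).

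Of the 272 TKO members, 271 overlapped an SssI peak (99.6%, 97.9 to 99.9%), where 99.4% of all autosomal TKO peaks did, so this share was that of the list. All 271 of those SssI peaks were members. The SssI peak was the wider one in 268 of the 271 pairs (98.9%), by a median of 160 bp (150 to 170 bp), and the TKO peak lay wholly inside it in 265 (97.8%). Over all TKO peaks the SssI peak was wider in 97.4%, by a median of 149 bp (148 to 151 bp). In their own lists the SssI peaks of the pairs ranked a median of 3.61% from the top (3.17 to 3.95%) and the TKO peaks 39.6% (34.2 to 46.5%), compared with 4.76 and 49.9% over all 14471 pairs. The scores of a pair were only loosely related. Their Spearman correlation was 0.19 over the 271 member pairs and 0.59 over all pairs, as a description across peaks. The ranks of the SssI peaks had quartiles of 1.86 and 5.90% from the top in member pairs, and of 2.30 and 8.12% over all pairs. Whether these ranges bear on the correlations was not tested.

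**Figure D5:**
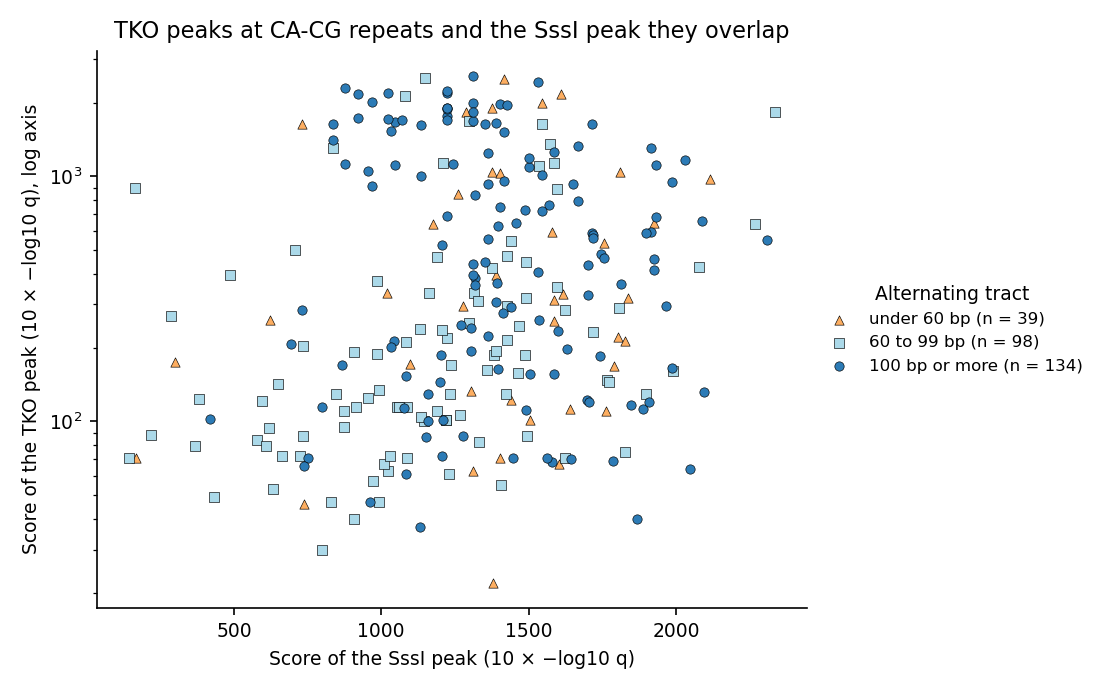
Score of the SssI peak (x axis) and of the TKO peak it overlaps (y axis, log axis) for the 271 pairs at CACG repeats, each point 1 pair, by the length of the alternating tract (triangles under 60 bp, squares 60 to 99 bp, circles 100 bp or more). TKO scores spread over the whole range at SssI scores above 1000, and the circles have a higher median TKO score (536.5) than the squares (152.5).

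In these pairs the median TKO score was 536.5 (367 to 686) for the 134 with a tract of 100 bp or more, 152.5 (121 to 210) for the 98 with a tract of 60 to 99 bp and 313 (171 to 641) for the 39 with a shorter one. The median SssI scores were 1375 (1313 to 1440), 1190 (1060 to 1298) and 1418 (1312 to 1602). The order by tract length was therefore not even in either list.

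The 5 SssI members with the highest score included 3 in introns. The first lay in intron 2 of Jarid2, which encodes a partner of the Polycomb repressive complex, at chr13:44762638-44763160. Its score was 2335, the 12th of the list, with a repeat of 18 bp in a tract of 71 bp, and the TKO peak over it had a score of 1828. The second lay in intron 46 of Ubr2, a ubiquitin ligase needed in male meiosis, with a score of 2309, a tract of 152 bp and a TKO score of 550. The third lay in intron 4 of Zzz3, a subunit of a histone acetyltransferase complex, with a score of 2270 and a TKO score of 636. The fourth lay upstream of Defb8, a defensin gene, at chr8:19449869-19450610, with a score of 2136, 8 CpGs in 742 bp and no TKO peak. The fifth lay outside genes on chromosome 2, with a score of 2116 and a TKO score of 978. Thus 4 of the 5 were in both lists, and no repeat among them was longer than 27 bp.

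The TKO members with the highest scores had scores of 2564, 2524, 2500 and 2415. The first lay on chromosome 18, and the next were intergenic, at chr1:56008338-56008897 and chr11:56572052-56572709, with 35 and 14 CpGs. The fourth lay in intron 41 of Hydin, which encodes a protein of motile cilia, at chr8:110514873-110515353, with 12 CpGs. Their SssI peaks had scores of 1313, 1148, 1418 and 1532. The repeats were 23 to 29 bp long, and none of these peaks was among the 5 SssI members with the highest score.

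The longest repeats were mostly in SssI peaks without a TKO peak. The repeat of 109 bp lay in intron 3 of Apbb2, which encodes an adaptor of the amyloid precursor protein, and was in both lists. Its SssI peak at chr5:66466150-66466777 had a score of 1487 and its TKO peak one of 731, and the tract of 243 bp held a second repeat. The next 4 by length in the SssI list had no TKO peak. They were a repeat of 107 bp upstream of Gm36235 with a score of 1190, one of 96 bp in intron 8 of Wwox with 438, one of 81 bp outside genes on chromosome 14 with 461, and one of 80 bp at Ppp1r12a, a regulatory subunit of myosin phosphatase, with 161. Their tracts were 156, 107, 83 and 81 bp long. In the TKO list the 4 members after Apbb2 had repeats of 71, 63, 63 and 59 bp in tracts of 112, 141, 115 and 141 bp, and scores of 394, 686, 383 and 153.

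At Rps6kl1, a gene for a protein similar to ribosomal S6 kinases, the region was a member of both lists. The SssI peak lay at chr12:85141829-85142461 with a score of 1547, 2.09% from the top of the list, and the TKO peak at chr12:85141919-85142421 with a score of 1628, 7.67% from the top. They held 43 and 41 CpGs and 2 repeats, of which the longer was 26 bp in a tract of 60 bp. The midpoint lay within 3000 bp upstream of an annotated start and in intron 4 of the main transcript.

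The TKO member with no SssI peak lay in intron 1 of Rbfox1, which encodes a splicing regulator of neurons, at chr16:6123066-6123228. It had a score of 71, 83.9% from the top of the TKO list, a repeat of 38 bp in a tract of 104 bp and 15 CpGs in 163 bp. Its score was low for the list, and its tract was close to the median of TKO members. The 5 SssI members with the highest score and no TKO peak had scores of 2136, 2032, 1825, 1720 and 1714, and after the region upstream of Defb8 they were in intron 1 of AC113458.1 and outside genes on chromosomes 5, 14 and 8. Their tracts were 68, 59, 110, 34 and 71 bp and their peaks held 8, 9, 22, 11 and 15 CpGs. All 5 were in the highest 1.23% of the SssI list.

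Genes that held more than 1 SssI member were few. Members lay within 690 annotated genes, of which 44 held 2 or more and 4 held 3 or more. Gm20388 held 5, with scores from 48 to 1424 and 1 TKO member. Ctnna2, a neuronal alpha-catenin, Fstl4, a follistatin-like gene, and Igsf21, an immunoglobulin superfamily gene, held 3 each and no TKO member, with SssI scores from 49 to 694, 87 to 1503 and 59 to 424. Hydin and the long non-coding RNA gene Gm2694 were the only genes with 2 TKO members, and their SssI scores were high, from 1319 to 1532 and from 1286 to 1765. Col19a1, a collagen gene, had 2 SssI members with scores of 487 and 1934 and 1 TKO member. Ago2, which encodes an Argonaute protein of the small RNA pathways, had 2 with scores of 433 and 560 and no TKO member. The study shows a peak on TKO DNA at Ago2, so what is lacking there is a TKO peak that holds this repeat. Erbb4 and Epha5, which encode receptor tyrosine kinases, had 2 each with no TKO member. No member of either list lay within 1000 bp of the next. The same distance was not counted over all peaks, so this is not shown to be particular to members. Beside the tract, 34 SssI members and 5 TKO members shared 40 identical bases with another member.

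By the midpoint of the peak, 48.8% (46.0 to 51.5%) of SssI members lay in introns, compared with 44.0% (43.8 to 44.3%) of all SssI peaks, 38.2% (35.6 to 40.9%) outside genes, compared with 45.7% (45.5 to 45.9%), and 10.6% (9.05 to 12.4%) within 3000 bp upstream of a start site, compared with 8.82% (8.69 to 8.96%). In 17 SssI members (1.32%, 0.824 to 2.10%) the midpoint lay in a 3′ untranslated region, compared with 0.658% of all SssI peaks. In 14 (1.09%, 0.648 to 1.81%) it lay in another exon, compared with 0.773%. Among genomic CACG repeats these shares were 1.65 and 1.30%. The repeat overlapped coding sequence in no member of either list, 0 of 1290 and 0 of 272, which allows a share of up to 0.297 and 1.39%. Coding overlap was not counted over all peaks or all genomic repeats, so this is not shown to be particular to members. TKO members lay in introns in 50.0% (44.1 to 55.9%) and outside genes in 39.3% (33.7 to 45.3%), with intervals that include the values of all TKO peaks, 45.6 and 44.5%. Genomic CACG repeats have nearly the same places, with 48.9% in introns and 36.7% outside genes, so that the places of SssI members differ little from those of the repeat itself. Repeats outside genes were in an SssI peak in 75.2% (71.9 to 78.2%) and intronic ones in 68.2% (65.3 to 71.1%).

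The 5 longest repeats outside all peaks are given for comparison. They were 57, 57, 54, 54 and 53 bp long and lay in introns of Adgrl2, an adhesion receptor, Clmp, a cell adhesion molecule, A630001G21Rik, Cdh20, a cadherin, and Stk10, a protein kinase. The alternating tracts around them measured 61, 66, 63, 55 and 53 bp, so that the repeat was nearly the whole tract. Some SssI members were as bare, with 81 of 83 bp on chromosome 14 and 80 of 81 bp at Ppp1r12a. Tracts of 61, 66 and 63 bp belong to the class of 60 bp or more, where 96.1% of repeats lay in an SssI peak. From the 5 repeats outside all peaks, the nearest SssI peak was 4576, 1100, 2885, 39492 and 3249 bp away. Of the repeats of 40 bp or more, 35 of 180 (19.4%, 14.3 to 25.8%) lay outside all peaks. Whether reads could be placed there was not tested.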

How the data were processed

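In vitro affinity sequencing with MBP-ZBTB43, and with MBP alone as the background, was analysed for TKO DNA and SssI DNA (8 libraries). According to the submitters' processing notes, bcl2fastq 1.9.0, BWA 0.7.17, SAMtools, MACS2 2.2.7.1 and deepTools 3.4.3 were used with build mm10. The authors pooled duplicates and called peaks against MBP. The deposited score is a whole number made by the authors' peak caller from the q-value, and the lists hold no counts. The methods state a minimum depth for these libraries, but the reads behind single peaks, and with them the counting error, cannot be read from the lists.

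Perfect period-4 and alternating runs were found on GRCm38, and its chromosomes were checked against the coordinates of the lists. Runs of at least 16 bp were clipped to the peak. Peaks overlapping by 1 bp counted as shared. Scores were ranked into 10 equal parts, with ties broken by width. Midpoints were placed on GENCODE M21, promoters (3000 bp upstream) first. The methods were tested on simulated data. Python 3.11.15, numpy 2.4.6 and scipy 1.17.1 were used.

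The members, classes and named regions were chosen with earlier results of these data known. Named were, in each list, the 5 members with the highest score and the 5 with the longest repeat, members of 1 list only (up to 5, by score), the Rps6kl1 region, genes with 2 or more SssI members (a choice of them is given), and the 5 longest repeats outside all peaks. The split of alternating tracts by CpGs and of members by tract length was added after the first results were seen. Alternatives varied the repeat length, 1 mismatch, the sequence read, chromosomes, q-value, merging, overlap and list length. The sperm libraries were left out because they have no list here, and 1 of the named regions is not reported here.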

Additional observations from a re-analysis of the deposited data

Results flagged for a closer look

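The comparisons above used autosomes only. On chromosomes X and Y, 27 SssI peaks held a CACG repeat, flagged because they lie outside those comparisons and number more than 3. They were among 6491 SssI peaks there, and the share on the autosomes was higher, 1290 of 169284 (0.762%, 0.722 to 0.805%). The TKO list had 140 peaks on X and Y, of which 2 held the repeat. Of the 47 genomic repeats on these chromosomes, 29 lay in an SssI peak (61.7%, 47.4 to 74.2%) and 3 in a TKO peak (6.38%, 2.19 to 17.2%). The interval of the TKO share overlaps that of the autosomes, and both DNAs came from males.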

How the results depend on the processing

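Of 68 values under an alternative, 50 stayed within the interval of the value given above or, for counts, within 1.5 times of it, and 18 did not. The counts of members went with the definition of the repeat. With a minimum of 12 bp there were 2596 SssI and 539 TKO members, with 24 bp there were 630 and 128, and with 1 mismatch allowed there were 2910 and 625. A minimum of 20 bp gave 181 TKO members. The median score of SssI members was 273.5 at 12 bp, 375 at 24 bp and 375 at a q-value under 1e-05. The share of genomic repeats in an SssI peak was 64.9% at 12 bp, 73.4% at 20 bp, 74.8% at 24 bp, 66.3% with 1 mismatch and 66.1% at a q-value under 1e-05. With only as many SssI peaks as there were TKO peaks, taken from the top by score, it was 21.3%, against 16.9% for the TKO list. The share of TKO members with an SssI peak was then 89.0% (84.7 to 92.2%), compared with 77.1% of all autosomal TKO peaks. With at least 50% of the SssI peak covered, 17.9% of SssI members were shared. No paired analysis was possible because the lists used here were called on pooled duplicates, and for the same reason no library was left out. Signal tracks of single libraries were not analysed here. The lists give no depth behind a repeat outside the peaks, so that capture there was not detectable in these lists rather than absent.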

Other observations

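With 1 mismatch allowed in 16 bp, 17.9% of the genomic loci lay in a TKO peak, which is inside the interval for perfect repeats (16.9%, 15.3 to 18.6%). The share of peaks that were members went from 0.594% on chromosome 1 (0.479 to 0.736%) to 0.918% on chromosome 6 (0.751 to 1.12%) in the SssI list. In the TKO list it went from 1.15% on chromosome 1 (0.658 to 2.00%) to 2.77% on chromosome 12 (1.74 to 4.39%).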
